A study of Mus musculus with 8 samples.

Results

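Spermatogonia are the diploid, mitotic germ cells at the base of the seminiferous epithelium, and 31 of their marker genes were followed in purified round spermatids of mutant and control mice. The genes were chosen by name, with earlier results of these data known. A member was read by the probe set that the platform annotation gives to exactly 1 gene, and where a gene had several such probe sets, by the one with the highest mean over all 8 arrays. By this rule 29 of the 31 genes were measured, of 18193 genes on the arrays. Nanos2 and Nanos3 had no such probe set and were not analysed here.

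Round spermatids are the haploid cells that follow meiosis. The mutant mice carried BrdtΔBD1, which removes bromodomain BD1 from BRDT, a protein of the germ line that binds acetylated histones, and the control mice are labelled only as control. All mice were of the 129 Sv/Ev strain and 2 to 4 months old, and every array held cells pooled from 7 adult animals of 1 genotype, separated on a bovine serum albumin gradient, with 4 arrays per genotype. The labels give purity as assessed by propidium iodide staining, without a value.

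In the adult testis a small pool of undifferentiated spermatogonia maintains itself under GDNF, a growth factor secreted by Sertoli cells and sensed through the receptor pair GFRA1 and RET. Retinoic acid then moves their progeny to the KIT-positive, differentiating state and finally, through STRA8, into meiosis. Most markers of these states are shut off long before the haploid stage, so that a purified round spermatid fraction is a place where they are usually low. In such a bulk sample, fewer cells of a type and less RNA per cell cannot be told apart.

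Round spermatid markers were bright on every array. The mean of 12 round spermatid markers lay between 14.16 and 14.46 (log2 intensity) on mutant arrays and between 14.04 and 14.30 on control arrays, with 0 of the 12 past the threshold in limma with or without the block, and 0 at an unadjusted p under 0.05. So near the top of the array scale, these markers do not show whether the fractions were equally pure. Arrays differed in RNA quality: the Gapdh control signal was higher at the 3' than at the 5' end by 1.68 and 2.05 (log2) on control arrays 1 and 3, against 0.33 to 0.94 on the other arrays, so counts and calls are also given without these arrays where they change. Same-numbered mutant and control arrays deviated together from their group means, so the replicate number was taken to pair them. This pairing was read from these data and is not stated in the labels. A fit with that number as a block is given beside the fit without it.

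The spermatogonial markers were on balance higher in mutant arrays. Their median log2 difference was 0.32 against -0.02 over all 18193 genes, and 23 of 29 had a positive difference, as did 46.3% of all genes. Without control arrays 1 and 3 the median was 0.31 and 23 were positive, and without mutant array 1 the median was 0.22. Etv5 was the 1 member that rose (limma, adjusted p under 0.05 over all genes), beside 1.86% of all genes, and 0 fell, beside 1.85%. With the replicate block 6 members rose, Etv5, Stra8, Dmrt1, Uchl1, Pou5f1 and Mki67, beside 6.60% of all genes, and 0 fell, beside 4.94%. At an unadjusted limma p under 0.05, 11 were higher and 1 was lower, beside 11.0% and 9.16% of all genes. The mutant array exceeded its control in all 4 pairs for 15 of the 29 members, which held for 17.7% of all genes, and was lower in all 4 for 1, beside 18.9%. With differences of more than 0.01 required, 14 members were higher in all 4 pairs, beside 17.1% of all genes.

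**Figure D1:**
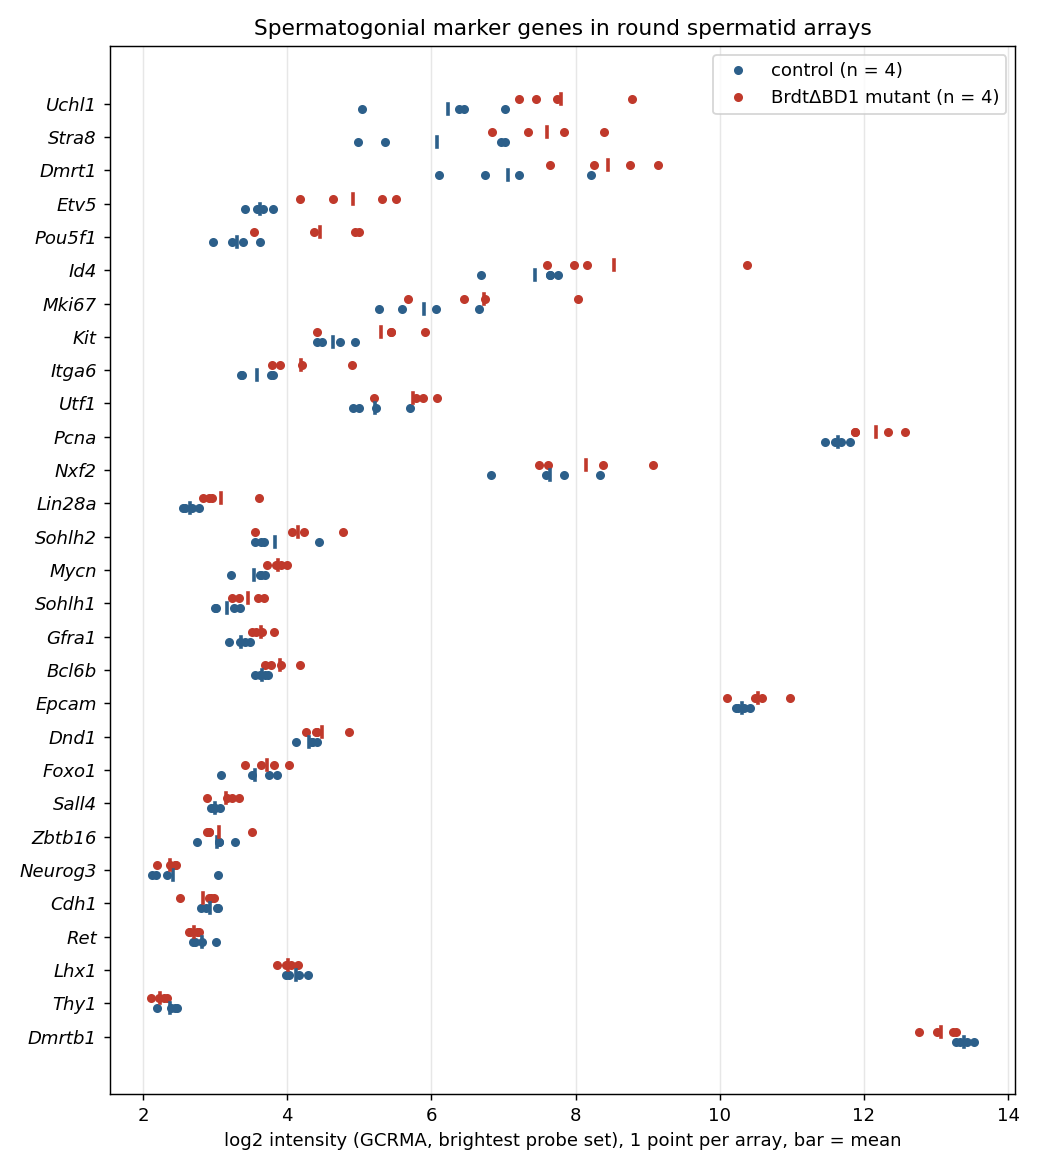
Log2 intensity of each of the 29 measured spermatogonial markers (x axis) on every array, with control arrays in blue, BrdtΔBD1 mutant arrays in red and a bar at each group mean, ordered by the size of the difference. Markers such as Ret, Thy1 and Neurog3 read between 2.11 and 3.04 on all arrays, while Pcna and Dmrtb1 read above 11 and 12, and Uchl1 and Etv5 have all 4 red points to the right of the blue ones.

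**Figure D2:**
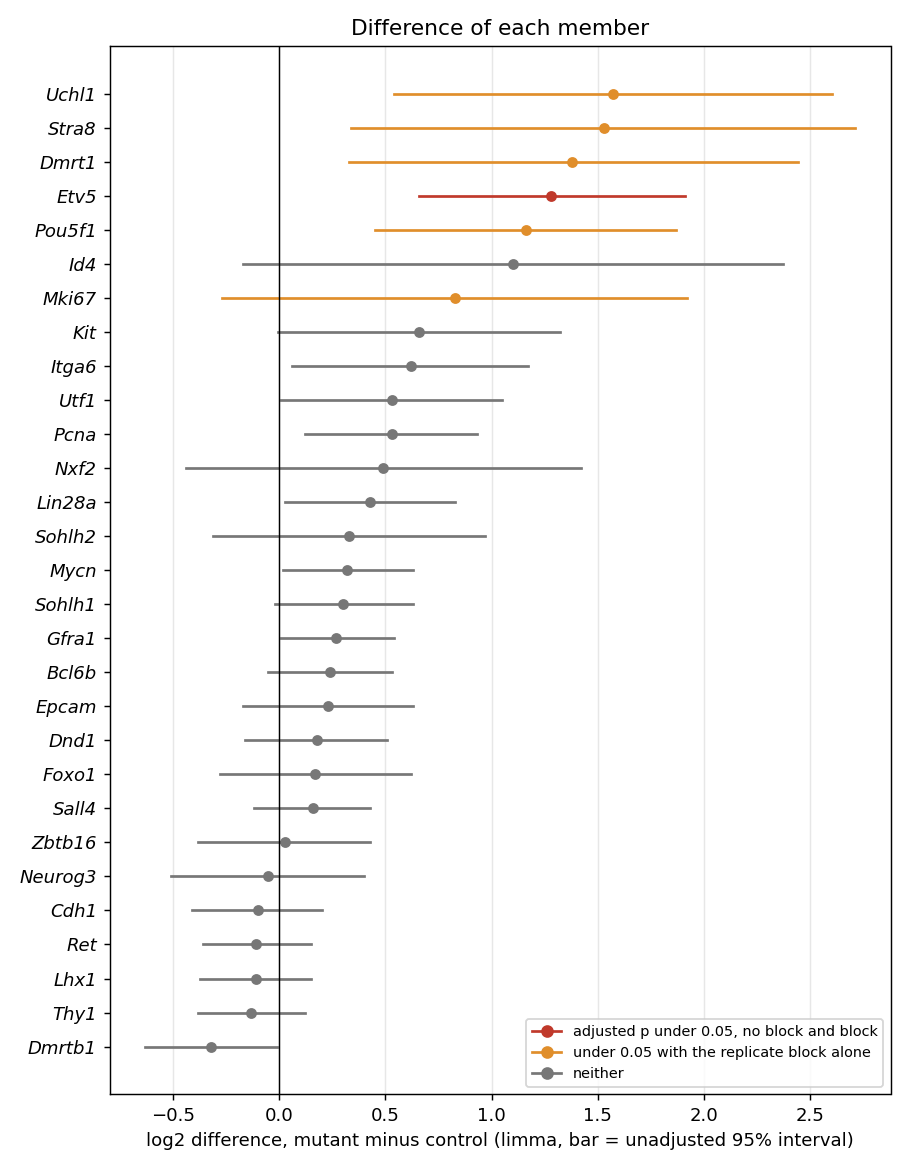
Log2 difference of each marker, mutant minus control (x axis), with its unadjusted 95% interval from limma without the block. Etv5, in red, passed the threshold in both fits, the 5 markers in orange passed with the replicate block alone, and the 23 in grey passed in neither.

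How the arrays read the markers differed by gene. Both group means were under 4 for 12 of the 29 members, and GCRMA compresses such dim probe sets, so their differences may understate changes in RNA. Whether these probe sets read RNA above background was not tested. They include the best-known marks of undifferentiated cells, such as Zbtb16, Gfra1, Ret, Sall4 and Lin28a. The brightest array of the 8 was mutant array 1 for 15 of 29 members, against 22.5% of all genes, a count made after the values were seen.

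Transcription factors of self-renewal came to 11 members, of which 1 rose and 2 rose with the block. Etv5, an ETS factor required to maintain spermatogonial stem cells, read 5.51, 4.18, 5.31 and 4.63 on the mutant arrays, in the order of their numbers as throughout, and 3.42, 3.58, 3.67 and 3.81 on the controls. All mutant arrays lay above all control arrays, with mutant array 2 the lowest of them. The log2 difference was 1.28 (SE 0.28, n = 4 each), a 2.44-fold higher level (limma adjusted p = 0.042, and 0.029 with the block). The rise passed in 1 of the 8 fits that leave out 1 array, that without mutant array 2, with an adjusted p from 0.0076 to 0.11, and did not pass without control arrays 1 and 3 (difference 1.21, adjusted p = 0.25). It was also read by 1 of 3 probe sets: the other two gave 0.32 (SE 0.14) and 0.04 (SE 0.11).

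Pou5f1, which encodes the pluripotency factor OCT4, read 5.0, 3.54, 4.37 and 4.94 on mutant arrays and 3.63, 2.97, 3.24 and 3.39 on control arrays. The groups overlapped through mutant array 2 and control array 1, yet the mutant array was higher in every pair, by 1.37, 0.58, 1.14 and 1.55. The log2 difference was 1.16 (SE 0.31; limma adjusted p = 0.080), and it passed with the block (SE 0.17, adjusted p = 0.015). Without the block, Pou5f1 passed where mutant array 2 was left out (adjusted p = 0.0079).

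Id4, an inhibitor of basic helix-loop-helix factors that marks stem-like spermatogonia, read 8.16, 10.38, 7.98 and 7.61 on mutant arrays and 7.64, 7.76, 6.69 and 7.64 on control arrays. Mutant array 2, the lowest of the mutant arrays for 14 of the 29 members, was here the highest, by more than 2 log2 units. The share of all genes lowest on that array was not counted. Among mutant arrays the mean over all genes was also lowest there, at 5.55 against 5.57 to 5.70. The Id4 difference of 1.10 (SE 0.56) did not pass (limma adjusted p = 0.32, and 0.14 with the block), and without mutant array 2 it was 0.48 (SE 0.27).

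Utf1, a chromatin-associated factor of undifferentiated cells, had a difference of 0.53 (SE 0.23; limma adjusted p = 0.24), with 5.21 to 6.08 on mutant and 4.92 to 5.70 on control arrays. Its dimmer probe sets gave 0.05 (SE 0.10) and 0.02 (SE 0.16). Mycn, a proto-oncogene of the MYC family, read 3.72 to 4.00 against 3.22 to 3.70, without overlap, and did not pass (difference 0.32, SE 0.13, limma adjusted p = 0.22). Bcl6b, a repressor induced by GDNF, read 3.89 ± 0.21 against 3.65 ± 0.07 (SD, n = 4 each). Foxo1, a forkhead factor of the stem cell state, read 3.73 ± 0.25 against 3.55 ± 0.35.

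The remaining factors of this group were dim and close to each other in the groups. Differences were 0.16 for the zinc finger factor Sall4, 0.03 for Zbtb16 (PLZF, a repressor of differentiation), -0.05 for the helix-loop-helix factor Neurog3 and -0.11 for the LIM homeobox factor Lhx1. Their unadjusted 95% intervals ran from -0.12 to 0.43 for Sall4, -0.38 to 0.43 for Zbtb16, -0.51 to 0.40 for Neurog3 and -0.37 to 0.15 for Lhx1. A doubling of the array signal lies outside each of these intervals.

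Receptors and surface proteins came to 7 members, of which 0 rose or fell in limma with or without the block. At an unadjusted p under 0.05, 2 were higher, Gfra1 and Itga6. Kit, the stem cell factor receptor of differentiating spermatogonia, read 5.91, 4.41, 5.44 and 5.44 on mutant arrays and 4.41, 4.48, 4.74 and 4.94 on control arrays. Mutant array 2 lay among the controls and the other three above them. The difference was 0.66 (SE 0.29; limma adjusted p = 0.25), and 0.022 was the adjusted p without mutant array 2. A dimmer Kit probe set gave -0.22 (SE 0.14), the opposite sign.

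Gfra1, the GDNF co-receptor, read 3.82, 3.52, 3.57 and 3.65 on mutant arrays and 3.20, 3.42, 3.49 and 3.35 on control arrays, a narrow separation without overlap (difference 0.27, SE 0.12, limma adjusted p = 0.23). Its signalling partner Ret had a difference of -0.11 (SE 0.11) at 2.71 against 2.81. For these probe sets the differences of the GDNF receptor pair had opposite signs, and both genes read under 4 on every array. The dimmer Gfra1 probe sets gave 0.0021 (SE 0.14) and -0.20 (SE 0.14), so the contrast in sign depends on the probe set.

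Itga6, the integrin subunit used to enrich stem cells, read 3.79 to 4.90 on mutant and 3.36 to 3.80 on control arrays (difference 0.62, SE 0.24, limma adjusted p = 0.20). Its second and dimmer probe set separated the groups, at 3.71 ± 0.36 against 2.91 ± 0.25 (SD, n = 4 each), with a difference of 0.81 (SE 0.19) and an adjusted p over probe sets of 0.089, and of 0.027 with the block. Epcam, an epithelial adhesion molecule, was bright on all arrays, at 10.54 ± 0.36 in mutant and 10.31 ± 0.09 in control arrays. The surface markers Thy1 and Cdh1 (E-cadherin) read 2.24 against 2.37 and 2.84 against 2.94.

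Factors of differentiation and meiotic entry came to 5 members, of which 0 rose or fell in limma without the block and 2 rose with it. At an unadjusted p under 0.05, 2 were higher and 1 was lower. Stra8, induced by retinoic acid before meiosis, read 8.40, 6.84, 7.84 and 7.34 on mutant arrays and 7.02, 5.36, 6.96 and 4.99 on control arrays. Mutant array 2 fell between the control arrays, but within pairs the mutant array was higher by 1.38, 1.48, 0.88 and 2.35. The difference was 1.53, or 2.88-fold, with an SE of 0.52 without the block and 0.23 with it (limma adjusted p = 0.15 and 0.015). Without control arrays 1 and 3, its brighter controls, the difference was 2.43 (adjusted p = 0.086).

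Dmrt1, a DM-domain factor that holds spermatogonia in the mitotic programme, read 9.15, 7.64, 8.76 and 8.26 on mutant arrays and 6.74, 6.10, 8.22 and 7.22 on control arrays. The overlap came from control array 3, and the pair differences were 2.42, 1.54, 0.54 and 1.04. The difference was 1.38 (SE 0.46; limma adjusted p = 0.14, and 0.034 with the block).

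Dmrtb1, also known as Dmrt6, is a paralogue that acts at the exit from the mitotic programme. It went the other way. It read 12.76, 13.23, 13.02 and 13.27 on mutant arrays and 13.43, 13.33, 13.28 and 13.53 on control arrays, the 1 member whose mutant arrays all lay below the control arrays, as for 6.49% of all genes. The difference of -0.32 (SE 0.14) did not pass (limma adjusted p = 0.24, and 0.16 with the block).

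The helix-loop-helix partners Sohlh1 and Sohlh2, which drive the transition to the KIT-positive state, had differences of 0.30 (SE 0.14) and 0.33 (SE 0.28). Both were dim, at 3.46 ± 0.21 against 3.16 ± 0.17 and 4.16 ± 0.50 against 3.83 ± 0.41 (SD, n = 4 each). In all 4 pairs Sohlh1 read higher in the mutant, Sohlh2 in 3 pairs with the fourth tied to within 0.01, and neither passed with or without the block.

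**Figure D3:**
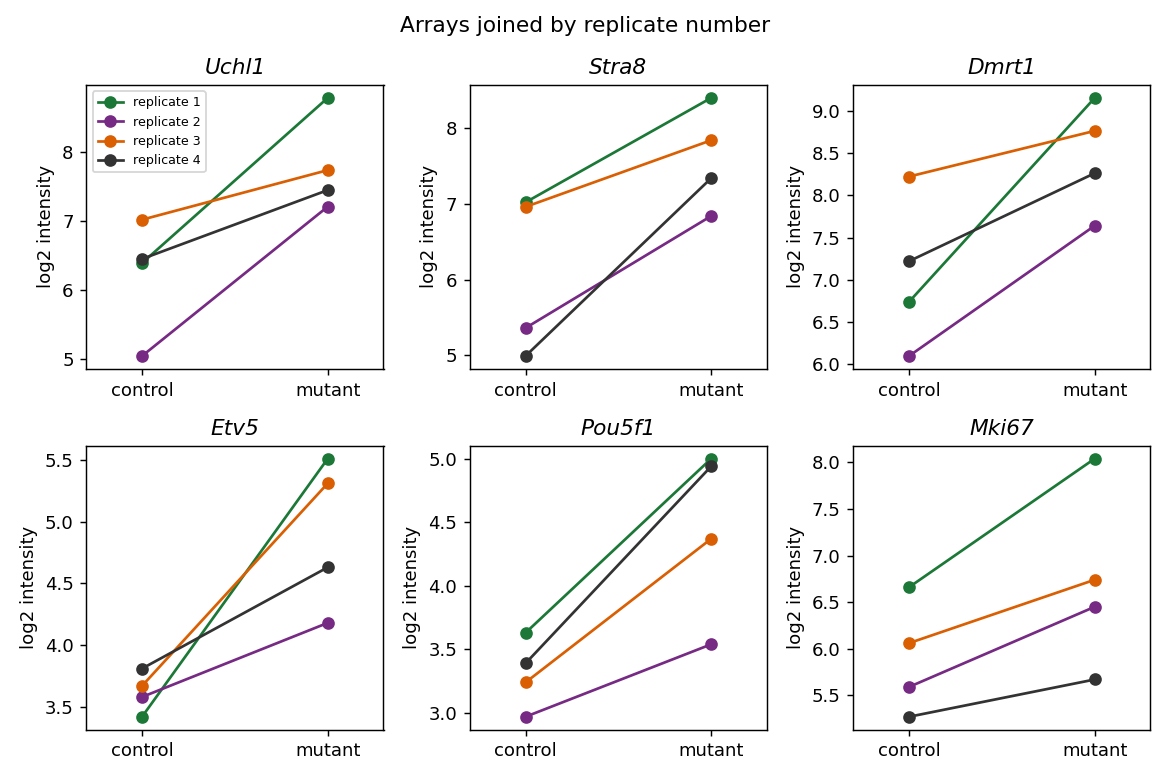
Log2 intensity (y axis) of the 6 markers past the threshold with the replicate block, with each mutant array joined to the control array of the same replicate number. All 24 lines rise from control to mutant, and replicate 2, in purple, is the lowest mutant array in every panel but that of Mki67, where replicate 4 is.

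Promoter windows are shown for Etv5, the 1 gene called in both fits, and Stra8, which passed with the block in 3 of the 4 fits that leave out 1 pair. They are the 250 bases before the start site in RefSeq (GRCm38.p6), at chr16:22439571-22439820 on the minus strand for Etv5 and chr6:34920698-34920947 on the plus strand for Stra8, written 5' to 3'. Capitals mark matches on either strand to CANNTG (the E-box core bound by helix-loop-helix factors), GGGCGG (the GC box) and AGGTCA (the half-site of nuclear receptors).
Etv5 promoter: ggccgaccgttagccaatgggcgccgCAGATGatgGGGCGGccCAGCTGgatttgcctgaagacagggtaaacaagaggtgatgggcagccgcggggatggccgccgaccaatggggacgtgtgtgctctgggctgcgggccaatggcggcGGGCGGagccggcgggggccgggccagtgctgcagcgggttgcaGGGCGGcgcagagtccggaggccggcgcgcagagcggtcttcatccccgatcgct
Stra8 promoter: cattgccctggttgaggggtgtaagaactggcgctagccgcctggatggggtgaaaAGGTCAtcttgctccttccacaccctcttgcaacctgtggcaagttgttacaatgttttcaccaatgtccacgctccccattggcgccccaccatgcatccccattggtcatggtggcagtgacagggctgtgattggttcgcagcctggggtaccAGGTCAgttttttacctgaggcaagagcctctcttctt
The Etv5 window held 2 matches to CANNTG, 3 to GGGCGG and 0 to AGGTCA, and the Stra8 window held 0, 0 and 2. A further RefSeq window of Etv5 held 0 matches to each. Over all 32851 windows of this length, 66.2% held CANNTG, 32.7% GGGCGG and 14.0% AGGTCA. Windows were taken for 20 of the 29 members, 25 in all, of which 13 held CANNTG, 14 GGGCGG and 4 AGGTCA. The search for member windows left out a chromosome that the count over all windows kept. These matches describe the sequence and were not tied to the array values.

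RNA regulators came to 3 measured members, of which 0 rose or fell in limma with or without the block, and 1, Lin28a, was higher at an unadjusted p under 0.05. Lin28a, which blocks the maturation of let-7 microRNAs, read 3.61, 2.96, 2.91 and 2.83 on mutant arrays and 2.68, 2.56, 2.58 and 2.78 on control arrays. The groups did not overlap, and mutant array 1 stood above the other mutant arrays (difference 0.43, SE 0.18, limma adjusted p = 0.22). Nxf2, a germ cell mRNA export factor, read 7.49 to 9.08 on mutant and 6.83 to 8.34 on control arrays, with a difference of 0.49 (SE 0.41). Dnd1, an RNA-binding protein of the early germ line, had a difference of 0.18 (SE 0.15).

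The last 3 members are markers of dividing cells and the deubiquitinase Uchl1, also called PGP9.5 and abundant in spermatogonia. Uchl1 had the largest difference of the 29, with 8.79, 7.21, 7.74 and 7.45 on mutant arrays and 6.39, 5.04, 7.02 and 6.45 on control arrays. The groups did not overlap, and the pair differences were 2.40, 2.16, 0.72 and 1.0. The level was 2.97-fold higher (log2 difference 1.57, SE 0.46; limma adjusted p = 0.097, and 0.027 with the block).

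Mki67, the proliferation antigen, read 8.04, 6.45, 6.74 and 5.67 on mutant arrays and 6.66, 5.59, 6.06 and 5.27 on control arrays. The groups overlapped widely, and within pairs the mutant array was higher by 1.37, 0.86, 0.68 and 0.40. Its SE was 0.48 without the block and 0.17 with it, for a difference of 0.83 (limma adjusted p = 0.39 and 0.031). Without control arrays 1 and 3 the difference was 1.29 (adjusted p = 0.39).

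Pcna, the sliding clamp of DNA replication and repair, read 12.57, 12.33, 11.88 and 11.87 against 11.68, 11.80, 11.46 and 11.60, without overlap. The difference of 0.53 (SE 0.18) did not pass (limma adjusted p = 0.14, and 0.053 with the block). In all, mutant arrays lay above control arrays without overlap for 6 members, Etv5, Uchl1, Pcna, Gfra1, Lin28a and Mycn, beside 6.15% of all genes.

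The calls made with the block changed with the pairs in the fit. Leaving out 1 pair, alternatives chosen after seeing the data, gave 3 members past the threshold without pair 1, 6 without pair 2, 0 without pair 3 and 1 without pair 4. Over the same fits, 627, 1402, 79 and 358 of all genes rose. Stra8 passed in 3 of these 4 fits, Pou5f1 in 2, Etv5, Dmrt1 and Uchl1 in 1 each, and Mki67 in 0. Kit and Nxf2, not called with all pairs, passed without pair 2.

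Of the 29 members 15 were read by more than 1 single-gene probe set, 52 probe sets in all. The probe sets of 6 members differed in sign: Epcam, Gfra1, Id4, Kit, Mycn and Sall4. Adjusted over all probe sets, 0 of the 52 passed without the block in limma, beside 1.42% of all probe sets, and 7 passed with it, beside 6.43%. The third Id4 probe set gave -0.05 (SE 0.40) and the other 0.80 (SE 0.33), against 1.10 for the brightest.

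**Figure D4:**
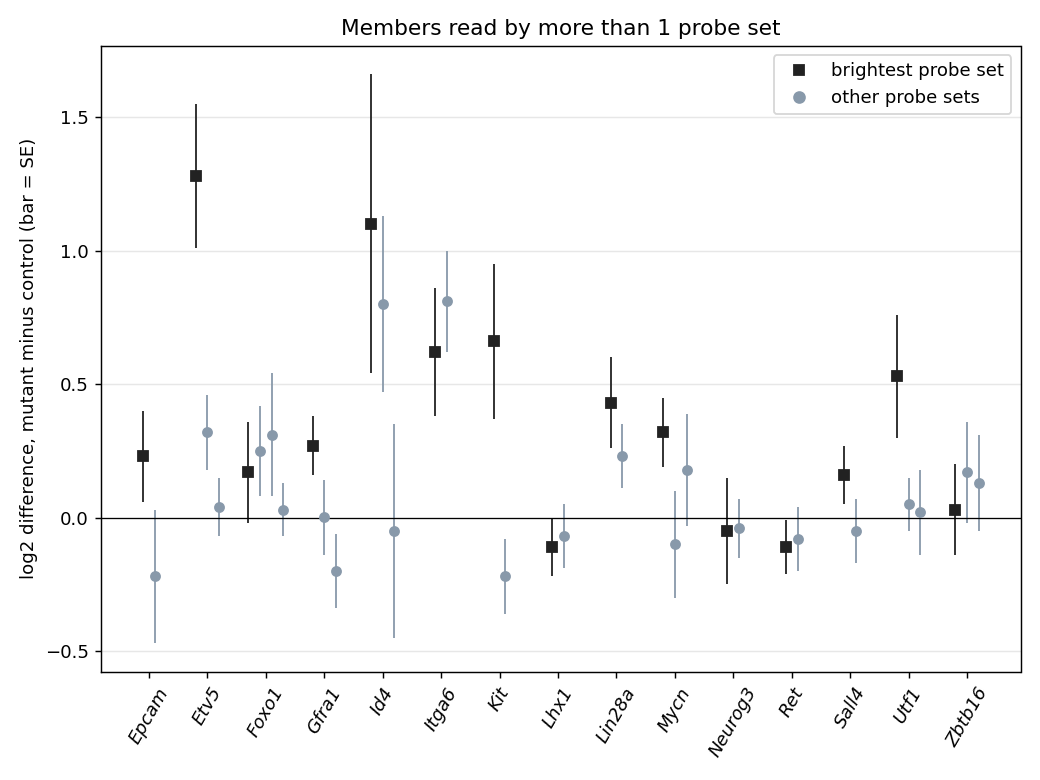
Log2 difference, mutant minus control (y axis, bar = SE), of every probe set of the 15 markers read by more than 1, with the brightest as a black square. The brightest probe sets of Etv5 and Kit lie above their others, at 1.28 and 0.66, while the Itga6 probe sets lie close together at 0.62 and 0.81.

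A further list of spermatogonial genes had a smaller median difference. Of its 37 measured genes, none of them members, 1 rose and 1 fell, and 6 rose and 2 fell with the block, at a median of 0.14. The riser was Itgb1, the integrin beta subunit that pairs with Itga6, at 5.21 ± 0.29 against 4.15 ± 0.40 (SD, n = 4 each; difference 1.07, SE 0.22, limma adjusted p = 0.038). The gene that fell was Dnmt3l, a cofactor of de novo DNA methylation, at 6.95 ± 0.59 against 8.75 ± 0.33 (difference -1.80, SE 0.29, limma adjusted p = 0.017). Of 24 further genes of cell division 1 rose, Aurkb, a mitotic kinase (difference 1.32, SE 0.23, limma adjusted p = 0.023), and 2 rose and 2 fell with the block, with a median of 0.04 over the list. In the 8 fits that leave out 1 array, Itgb1, Dnmt3l and Aurkb passed in 2, 5 and 4. Without control arrays 1 and 3, 0 of the 3 passed, at differences of 1.09, -1.55 and 1.12. In that smaller fit 18 of all genes rose and 50 fell.

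Markers of other testis cells were read on the same arrays. The mean of 22 Sertoli cell markers was 5.77 to 7.36 on mutant and 4.85 to 5.70 on control arrays, without overlap. Of them 6 rose and 0 fell, 14 and 0 with the block, with a median difference of 1.50. Among the defining ones Cldn11 rose by 1.72 (log2), Clu and Rhox5 had differences of 1.67 and 1.46, Sox9 read 3.80 in both groups and Amh 1.95 against 1.97. Outside the defining ones, Vim and Fabp5 rose by 2.95 and 4.01 (limma adjusted p = 0.014 and 0.033). Of the 8 fits that leave out 1 array, Cldn11 and Fabp5 each passed in 1 and Vim in 7. Of 9 Leydig cell markers 3 rose (list mean 4.18 to 4.48 against 3.1 to 3.65), at a median difference of 0.35. The risers were Aldh1a1, Ptgds and Gsta2, with differences of 2.50, 1.26 and 2.65, and none of them is a defining marker. The defining markers Star and Cyp17a1 had differences of 0.35 and 1.05 and did not pass (limma adjusted p = 0.28 and 0.29). Cyp17a1 read 5.11 on mutant array 2 against 2.50 to 3.17 on the other mutant and 2.15 to 2.50 on the control arrays. Of 19 peritubular, vascular and blood cell markers 1 rose (3.28 to 3.92 against 3.12 to 3.27), with Pecam1 and Ptprc at 2.55 and 2.64 in both groups. Of 18 spermatocyte markers 0 rose or fell in limma without the block, and 3 rose and 2 fell with it (8.79 to 9.54 against 8.81 to 9.13). At an unadjusted p under 0.05, 5 of the 18 were higher and 3 lower, and the list median difference was 0.18. The defining markers Sycp1, Sycp3 and Dmc1 had differences of 0.44, 0.99 and 0.65. With the block Sycp3 passed (limma adjusted p = 0.011), and Sycp1 and Dmc1 did not (0.12 and 0.30). Without control arrays 1 and 3, 0 genes of these 4 lists passed in limma, beside 18 rises and 50 falls over all genes, at a Sertoli median of 1.64. When 1 array was left out, 0 to 14 Sertoli, 0 to 3 Leydig and 0 to 2 markers of the peritubular, vascular and blood list rose.

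The mean of the 29 spermatogonial markers was 5.73, 5.31, 5.50 and 5.31 on mutant arrays and 5.06, 4.87, 5.08 and 4.96 on control arrays. By pair it was higher in the mutant by 0.67, 0.44, 0.41 and 0.34, and the Sertoli mean by 2.18, 0.84, 1.66 and 1.39. The part of these other cells in the differences of the spermatogonial markers was not tested.

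**Figure D5:**
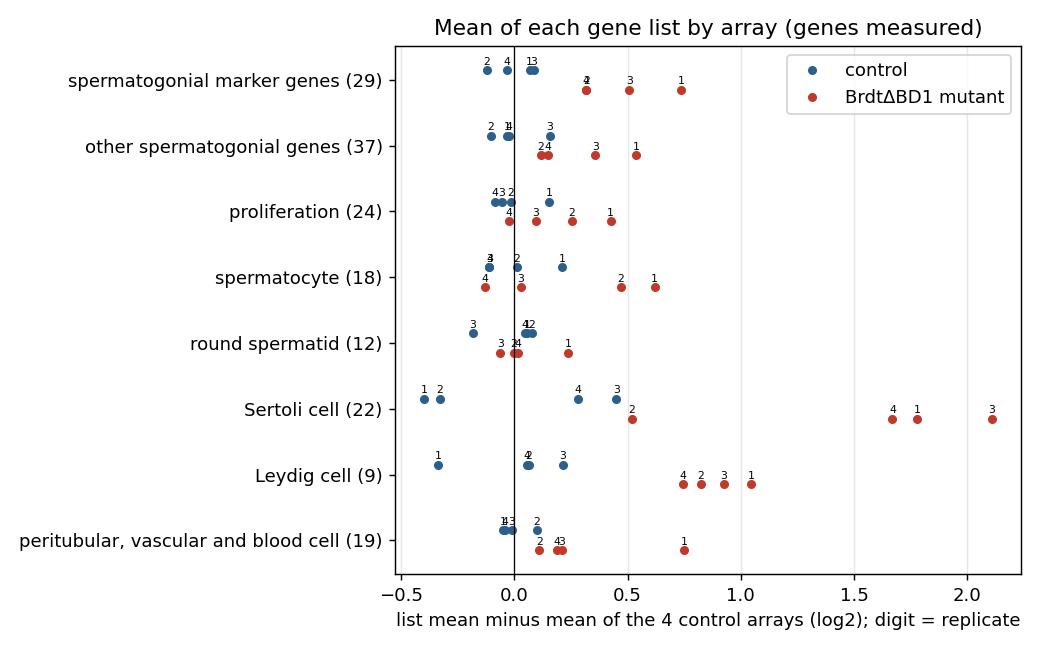
Mean log2 intensity of each gene list on every array, minus the mean of the 4 control arrays (x axis), with replicate numbers beside the points and the number of genes measured in brackets. The mutant points all lie to the right of the control points for the spermatogonial marker, Sertoli, Leydig and peritubular, vascular and blood lists. They overlap with the control points for the other spermatogonial genes, proliferation, spermatocyte and the 12 round spermatid markers.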

How the data were processed

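The authors deposited 1 log2 intensity per probe set and array, already normalized. Tools named in the submitters' processing notes are GCRMA and limma, versions not given in the sources used here. Of 45101 probe sets, 64 controls were left out. Of the 45037 tested, 34945 carry 1 gene in the platform annotation, 932 several and 9160 none listed. Current symbols came from RefSeq genes of GRCm38.p6, where 34741 were found by Entrez number. Testing used R 4.3.3 and limma 3.58.1, group as the only term, two-sided, with Benjamini-Hochberg adjustment over 18193 genes and a threshold of 0.05, tested on simulated data first. Deviations from group means correlated at r = 0.36 to 0.50 between same-numbered arrays and at -0.26 to -0.02 otherwise, across genes, so the numbers were taken to pair the arrays. Deviations cancel within a group, so the negative values are partly built in. The labels do not say what the numbers share. All members are named. Of other lists, defining markers and up to 3 genes past the threshold were eligible to be named. The members and lists were chosen with earlier results of these data known. Tried besides were the block, a minimum mean of 4, adjustment over probe sets, the mean of a gene's probe sets, median centring, quantile normalization, trended variances and leaving out arrays. The number of arrays limits the precision. Each array held cells pooled from 7 animals, so the spread is that between arrays of pooled cells and not between single animals.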

Additional observations from a re-analysis of the deposited data

Results flagged for a closer look

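In 5 of the 58 groups of 4 arrays examined for the members, 1 array stood farther from the others than Dixon's limit for 4 values, and chance flags about 1 in 20. Id4 read 6.69 on control array 3, below 7.64 to 7.76 on the other controls. Sohlh2 read 4.44 on control array 1, above 3.55 to 3.68. Zbtb16 read 3.52 on mutant array 2, above 2.89 to 2.91, and Cdh1 read 2.52 there, below 2.91 to 2.98. Lin28a read 3.61 on mutant array 1, above 2.83 to 2.96.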

How the results depend on the processing

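In limma, the number of members that rose was 1 and became 6 with the replicate block, 2 with trended and robust variances, 0 when adjusted over all probe sets, 0 with the mean of a gene's probe sets, 0 without control arrays 1 and 3, and 0 to 3 when 1 array was left out. With the block it was 3, 6, 0 and 1 without pairs 1 to 4, alternatives chosen after seeing the data. The number that fell was 0 in each of these. Over all genes, 339 rises and 336 falls became 1201 and 899 with the block, 189 rises when adjusted over all probe sets, 618 falls with a further quantile normalization, and 18 and 50 without control arrays 1 and 3. Leaving out 1 array gave 70 to 755 rises and 129 to 376 falls, and with the block, 627 and 521 without pair 1, 1402 and 862 without pair 2, and 79 and 115 without pair 3. Of 565 values of single members under an alternative, 9 changed sign, all of members that did not pass. Without 1 array Zbtb16 ran from -0.13 (mutant array 2) to 0.11, with -0.07 without control array 4, and was -0.05 and -0.02 with the block without pairs 2 and 4. Neurog3 ran from -0.15 to 0.15, the last without control array 4 (0.15 too with the block and without pair 4), and was 0.01 without mutant array 3. Cdh1 ran from -0.15 to 0.0027, the last without mutant array 2, and Dnd1 was -0.0022 after quantile normalization. The cause was not tested. Further alternatives, a minimum mean of 4 and median centring, left the members' count at 1. Low signal limits the 12 members with both means under 4.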
